A study of Mus musculus with 9 samples.

Results

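The promoters of 85 cytoplasmic ribosomal protein genes were described in maps of chromatin interactions from mouse embryonic stem cells. They are the protein-coding genes whose symbol is Rpl or Rps followed by a digit, or is Rpsa or Rplp0 to Rplp2. Kinases named Rps6k, Rps19bp1 and symbols ending in -ps were left out. Of the 85 genes, 52 belong to the large subunit and 33 to the small subunit, of 21924 protein-coding genes in all. Their starts lay in 96 genomic bins of 2 kb on 19 chromosomes, and 17 of these bins also held the start of another protein-coding gene. The family is chosen by name, with no measured value, so 7 paralogues, marked by an added l or l1 (Rpl10l, Rpl22l1, Rpl36al, Rpl39l, Rpl3l, Rpl7l1 and Rps27l) are among the members, while Fau, which also encodes a ribosomal protein, is not.

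The cells are the E14 line carrying an auxin-inducible degron (AID) on CTCF, the DNA-binding protein that halts cohesin at chromatin loop boundaries. They were grown in serum-free medium with LIF and the inhibitors PD0325901 and CHIR99021. MNase HiChIP cuts crosslinked chromatin with micrococcal nuclease, joins DNA ends that lie together in the nucleus, and enriches the joined DNA with an antibody. The 9 libraries form 4 groups: H3K27ac without treatment (2 libraries), H3K27ac after 12 h of the auxin IAA (2 libraries), CTCF (2 libraries) and RAD21, a cohesin subunit (3 libraries). The CTCF and RAD21 titles name no treatment, and their lists are taken here as untreated. All 4 groups carry the CTCF-AID allele, so IAA is the only labelled difference between the H3K27ac groups. IAA alone in cells without the degron, the level of CTCF protein and the number of clones behind the line were not analysed here. Each group is represented by 1 list pooled over its libraries, so none of the values has an error over replicates. A list holds pairs of bins that passed the authors' q threshold of 0.05, with a contact count for each pair.

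Ribosomal protein genes are expressed in every growing cell, and their products are needed in equal amounts to build ribosomes. The genes are scattered over the chromosomes in mammals, unlike bacterial operons. Many of their transcripts start within a run of pyrimidines, the 5′ terminal oligopyrimidine tract, through which mTOR signalling controls their translation. H3K27ac marks active promoters and enhancers, and the H3K27ac lists report contacts of chromatin that carries it.

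The promoter sequences carried these features of the family. The table of RefSeq promoters used here, on GRCm38.p6, was matched for 65 of the 85 genes, and 59 of these RefSeq starts lay within 100 bases of a GENCODE start. An unbroken run of C and T of at least 6 bases, lying across the start or within 5 bases of it, was found in 47.7% of the 65 promoters (95% Wilson interval 36.0 to 59.6), against 20.8% of 17491 protein-coding promoters. Such a run anywhere in the first 50 transcribed bases was found in 84.6% against 43.2%. In the 300 bases from 250 before to 50 after the start, and on either strand, CCGGAAG was found in 38.5% (27.6 to 50.6) against 11.9%. AAGATGG was found in 13.8% against 6.37%, GGGCGG in 60% against 46.3% and TATAAA in 9.23% against 13.3%. The median GC content was 57% against 56.3%, and the median ratio of observed to expected CpG was 0.870 against 0.576. A match is a description of letters and not a bound site. The 6 promoters below, from 100 bases before to 20 bases after the RefSeq start, belong to genes with the strongest H3K27ac interactions (Rpl4, Rpl7a, Rps19), with one of the lowest or highest ratios of contacts after IAA to untreated (Rpl7l1, Rps21), or with many CTCF interactions (Rplp0). Capitals mark the C and T run at the start where it has at least 6 bases, and any match to CCGGAAG or GGGCGG on either strand, of which CCGCCC is the reverse complement.
Rpl4 (chr9:64173287-64173406, plus strand): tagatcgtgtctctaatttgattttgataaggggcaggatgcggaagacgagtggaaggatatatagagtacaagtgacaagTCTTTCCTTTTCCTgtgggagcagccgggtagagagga
Rpl7a (chr2:26910707-26910826, plus strand): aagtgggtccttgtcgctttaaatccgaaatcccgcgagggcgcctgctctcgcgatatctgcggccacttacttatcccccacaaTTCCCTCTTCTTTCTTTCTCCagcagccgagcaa
Rps19 (chr7:24884492-24884611, plus strand): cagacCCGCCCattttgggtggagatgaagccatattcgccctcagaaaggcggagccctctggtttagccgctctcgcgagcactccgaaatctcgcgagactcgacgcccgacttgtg
Rpl7l1 (chr17:46782637-46782756, minus strand): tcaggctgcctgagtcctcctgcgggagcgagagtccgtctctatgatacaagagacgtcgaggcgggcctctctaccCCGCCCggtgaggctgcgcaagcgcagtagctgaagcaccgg
Rps21 (chr2:180257279-180257398, plus strand): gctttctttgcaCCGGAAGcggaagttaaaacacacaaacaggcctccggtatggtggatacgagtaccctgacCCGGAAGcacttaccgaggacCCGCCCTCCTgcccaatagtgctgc
Rplp0 (chr5:115559367-115559486, plus strand): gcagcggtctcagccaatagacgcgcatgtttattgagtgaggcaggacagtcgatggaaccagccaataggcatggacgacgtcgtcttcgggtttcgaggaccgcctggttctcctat
Rpl4 and Rpl7a carry runs of 14 and 21 pyrimidines at the start, while the runs of Rps19, Rpl7l1 and Rplp0 are shorter than 6 bases in this annotation. Rps21 has 2 copies of CCGGAAG in the window.

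Nearly all ribosomal protein genes had a listed H3K27ac interaction. Without treatment 77 of 85 genes (90.6%, Wilson interval 82.5 to 95.2) had at least 1, against 31.3% of all protein-coding genes. They took part in 393 of the 36274 untreated interactions, and in 305 of the 28210 interactions after IAA, where 72 genes (84.7%, against 28.1% of all protein-coding genes) were listed. The number per gene ran from 0 to 17 without treatment, with a median of 3; 13 genes had 1 interaction, and 11 genes with 10 or more held 141 interactions. In no list was any interaction found for Rpl39l, Rpl3l, Rps24 or Rps27rt. Rpl3l and Rpl39l are paralogues of Rpl3 and Rpl39 known for expression in muscle and testis, whereas Rps24 encodes a core small-subunit protein. Rps2, Rps3 and Rps3a1 were listed only after IAA, with 3, 1 and 1 interactions. Genes listed only without treatment included Rpl10l, Rpl13, Rpl17, Rpl37a, Rplp1 and Rps4x, with 1 to 3 interactions each. Rpsa had no H3K27ac interaction and 1 CTCF interaction. Of the 80 genes in either H3K27ac list, 46 (57.5%, against 51.8% of 7793 protein-coding genes in either list) had fewer interactions after IAA, 15 (18.75%, against 26%) had more and 19 the same number. The IAA list was also the shorter one over all interactions.

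**Figure D1:**
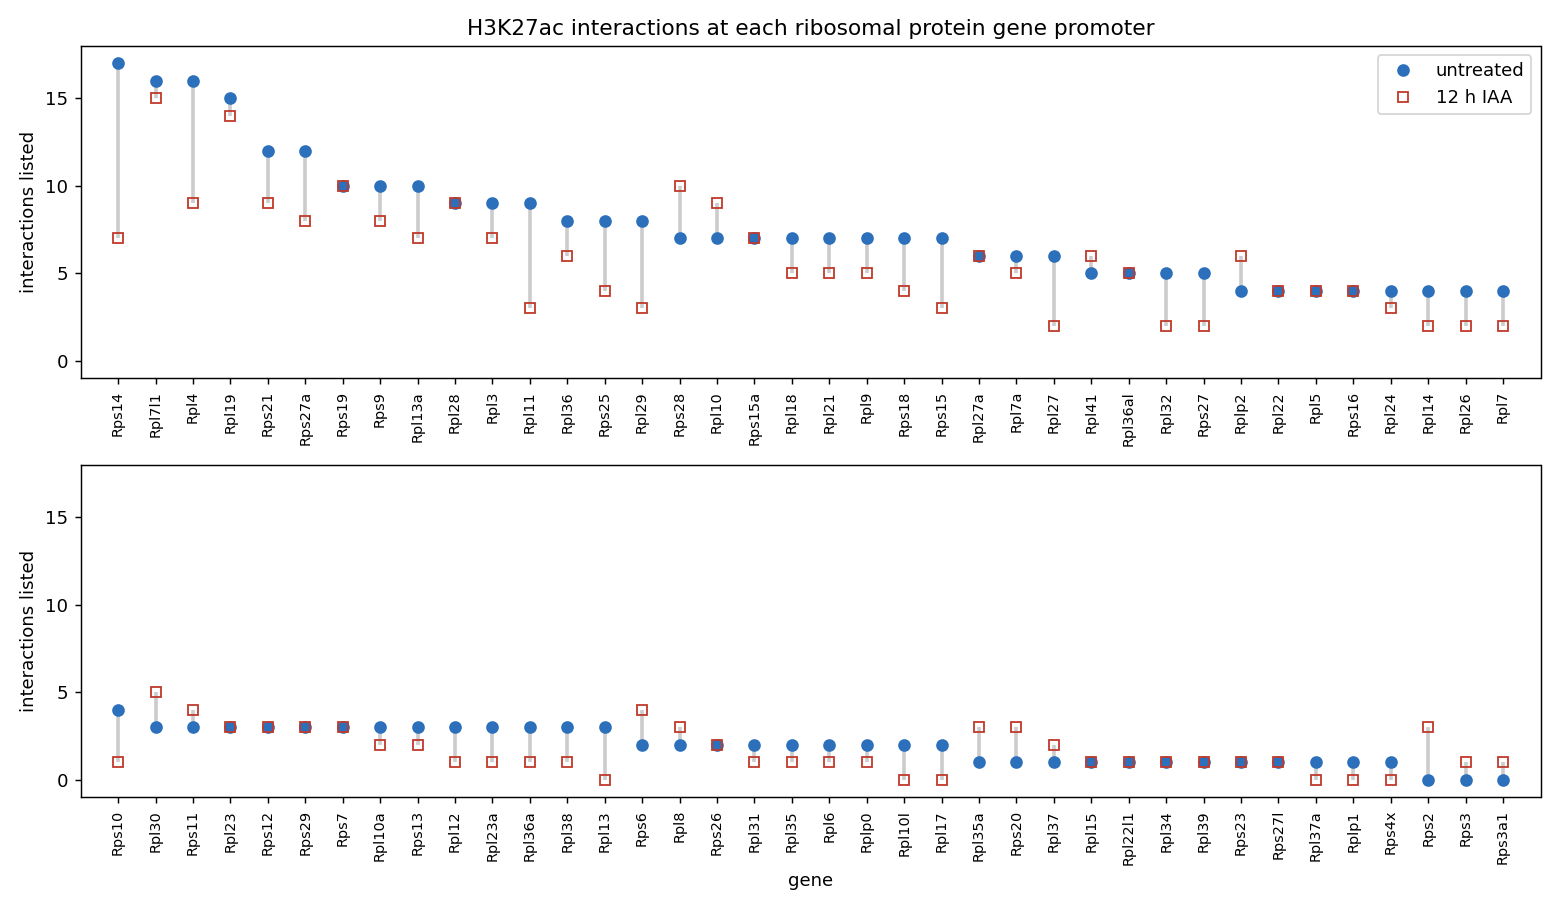
Number of listed H3K27ac interactions (vertical axis) at the promoter of each ribosomal protein gene with at least 1, a few genes left out, ordered by the untreated number and continued in the lower panel; filled circles are the untreated list, open squares the list after 12 h of IAA, and grey lines join them. The untreated number falls from 17 for Rps14 to 0 at the end of the order, and of the 80 genes in either list 46 have fewer interactions after IAA and 15 more.

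The promoters had high H3K27ac coverage, the authors' count for a single bin. The coverage of the 84 listed ribosomal protein bins ran from 1143 to 12114, with a median of 5116.5. The median of 6584 other listed protein-coding promoter bins was 2280, and 88.9% of these lay below the ribosomal protein median. Of the 84 bins, 33 fell in the highest of 10 coverage classes and 26 in the next. Among other promoters the mean number of interactions per bin went from 1.21 in the lowest class to 8.65 in the highest, so they were reweighted to the coverage classes of the ribosomal protein bins. On the raw lists, ribosomal protein bins had more interactions than other promoters, 4.71 per listed bin against 3.09. At the same coverage the order was the other way, with 5.79 for the other promoters. This came from the upper 3 classes, where ribosomal protein bins had the lower mean in each (2.75 against 3.81, 4.5 against 4.96 and 6.24 against 8.65), while in the 5 lower classes with ribosomal protein bins, each of 1 to 7 such bins, their mean was the higher one. After IAA the 3 values were 3.89, 2.74 and 5.22. No test was made of these differences, because promoters of one list are not replicates.

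**Figure D2:**
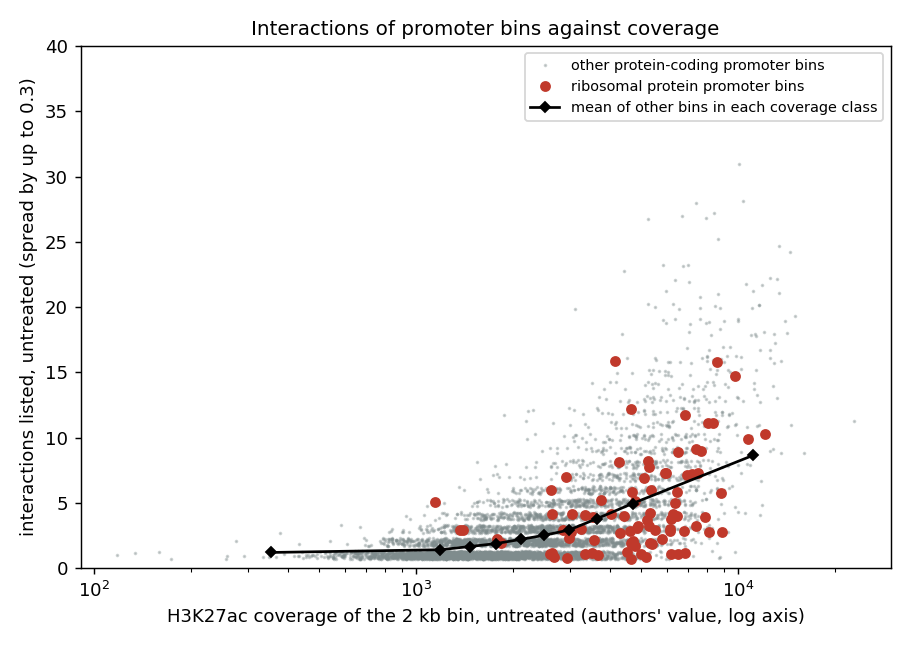
Number of untreated H3K27ac interactions of each listed 2 kb promoter bin (vertical axis) against its coverage (horizontal axis, log scale); red points are 84 ribosomal protein bins, grey points 6584 other protein-coding promoter bins, and black diamonds the mean of the other bins in each of 10 coverage classes. The red points lie mostly to the right, with a median coverage of 5116.5, and in the highest class their mean of 6.24 interactions is under the diamond at 8.65.

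The ratio of coverage between the conditions was close to that of other promoters. Over 76 ribosomal protein bins present in both lists, the log2 ratio of coverage after IAA to untreated had a median of -0.08 relative to the median over all bins, which was 0.20. The median for other promoters was -0.08, and -0.12 at the same coverage. Of the 76 bins, 16 lay above the median over all bins.

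The genes with the most interactions differed in how these were laid out. Rps14 and Rps21 are small-subunit proteins, Rpl4 lines the peptide exit tunnel of the large subunit, and Rps27a encodes ubiquitin fused to a ribosomal protein. Rps14 had 17 interactions without treatment and 7 after IAA. Its strongest joined it to an intron of Ndst1, 50 kb away, with 29 contacts untreated and 20 after IAA. The start of Ndst1 itself had 18 contacts untreated and 27 after IAA with one Rps14 bin, and 26 and 30 with the next. Rps14 also met the start of Tcof1, which encodes a nucleolar factor of ribosomal RNA synthesis, 74 kb away with 20 and 11 contacts. Over its 7 shared pairs the sums were 147 and 139, a log2 ratio of -0.05 (-0.40 to 0.29). Most of what was listed at Rps14 lay within and around its neighbour Ndst1.

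Rpl4 had 16 interactions untreated and 9 after IAA, all from the bin chr9:64172001-64174000, which also holds the start of Zwilch. The strongest interaction of the whole family joined this bin to the start of Snapc5, 6 kb away, with 99 contacts untreated and 67 after IAA. A further one joined it to the start of Tipin, a replication fork gene 108 kb away, with 28 and 25 contacts. The start of Map2k1, the kinase MEK1, lay 80 kb away and had 15 and 19 contacts. Rpl4 thus had both higher and lower counts after IAA within 1 bin, and starts shared with Zwilch cannot be told apart.

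Rpl7l1, a paralogue of Rpl7, had 16 interactions untreated and 15 after IAA, of which 10 were the same bin pairs. They ran from chr17:46782001-46784000 mainly into the body of Bicral, a subunit of a chromatin remodelling complex. Of the 10 shared pairs, the largest ratio of untreated to IAA was at an intron bin of Bicral 64 kb away, with 40 contacts untreated and 16 after IAA. The start of Tbcc, 108 kb away, was listed only without treatment with 12 contacts. Rpl7l1 thus had nearly as many interactions after IAA, with lower counts in most of the shared ones.

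Rpl19, a large-subunit protein, had 15 interactions untreated and 14 after IAA, but only 4 shared pairs. The start of Cdk12, the transcription elongation kinase 176 kb away, was joined to chr11:98026001-98028000 by 19 contacts and listed only without treatment. The start of Mllt6, 364 kb away, had 12 contacts and was listed only after IAA. The 4 shared pairs lay within 26 kb. The longer pairs named here were thus each called in 1 list.

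Rps21 had 12 interactions untreated and 9 after IAA at chr2:180256001-180258000. Its strongest, to a bin outside annotated genes 20 kb away, had 35 and 38 contacts. The start of Adrm1, a proteasome ubiquitin receptor 86 kb away, had 11 and 10 contacts. Rps27a shared its bins with Clhc1 and had 12 interactions untreated and 8 after IAA. Both of its bins met the start of Rtn4, with 30 contacts untreated each, and with 21 and 25 after IAA.

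The other strongest interactions were short. Rpl7a, whose bin chr2:26910001-26912000 also starts Med22, met the start of Surf6 8 kb away with 74 contacts untreated and 50 after IAA. Rps19, which had the highest coverage of the family, met a bin outside annotated genes on each side of chr7:24884001-24886000, at 6 kb. One side had 69 contacts untreated and 65 after IAA, and the other had 54 and was listed only without treatment. Rpl36 met the starts of Safb and Safb2 28 kb from chr17:56612001-56614000 with 52 contacts untreated and 27 after IAA.

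The other end of these interactions often held another gene start. Without treatment 197 of 393 interactions (50.1%, Wilson interval 45.2 to 55.0) had a protein-coding start at both ends, against 12.3% of all interactions, most of which involve no start at all. In all, 70 of the 85 genes had at least 1 such partner. The share over all protein-coding genes is not given here, so this count cannot be read as a trait of the family. Counting each promoter end once, the share was 50.5% for ribosomal protein promoters, 42.1% for other promoters and 36.8% for other promoters at the same coverage. After IAA the shares were 58.0% and 42.8%, and 38% at the same coverage. The median number of other promoter bins within 50 kb was 3 for ribosomal protein bins and 3 for other promoter bins, and 2.06 for others at the same coverage. At the same density of starts the others reached 47.7%, a difference of 2.81 percentage points, and with coverage and density held alike together 42.6%, a difference of 7.86. Leaving out each ribosomal protein gene in turn gave shares of 49.1% to 51.7% of interactions.

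**Figure D3:**
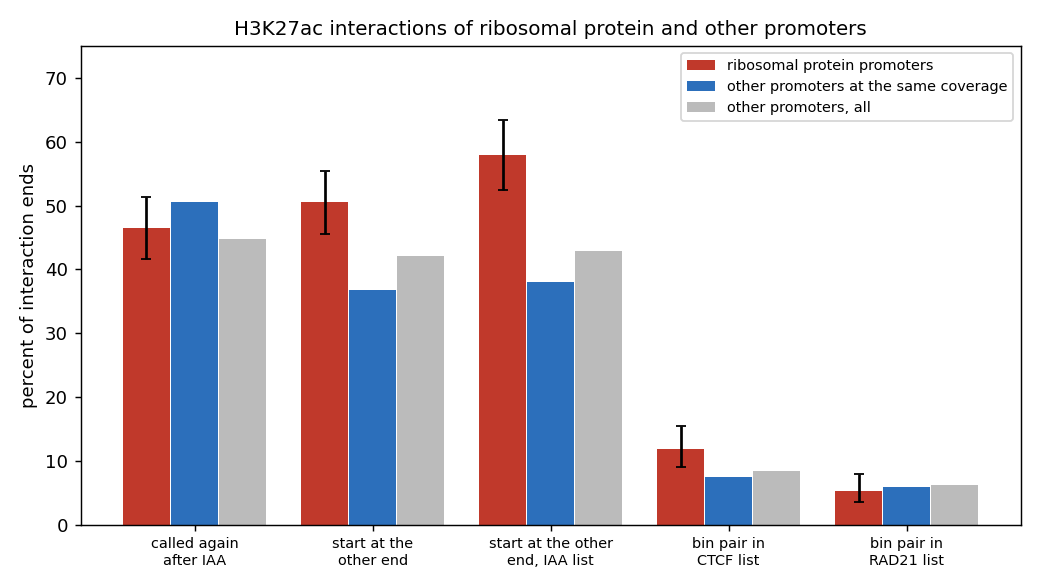
Percent of H3K27ac interaction ends (vertical axis) with each property, for ribosomal protein promoters (red, with 95% Wilson intervals), other promoters reweighted to the same coverage (blue) and all other promoters (grey). The share with a start at the other end is 50.5% in red, 36.8% in blue and 42.1% in grey, while the share called again after IAA is 46.5%, 50.5% and 44.8%.

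A few interactions joined ribosomal protein promoters to each other. Within 500 kb of each other lie 7 pairs of these genes, and 6 of them are at least 6 kb apart, the shortest span listed for the family. Of these, 2 were joined untreated and 2 after IAA, 3 in either list. Rpl41 and Rps26, 78 kb apart, were joined by 10 contacts untreated and 12 after IAA. Rps29 and Rpl36al were joined across 26 kb by 19 contacts untreated, and by 13 contacts in the CTCF list, but not in the list after IAA. Rpl23 and Rpl19, 244 kb apart, were joined by 10 contacts after IAA only. Within Rps14, 2 annotated starts 28 kb apart were joined by 11 contacts untreated only. These pairs had 10 to 19 contacts, and whether counting error moved them across the q threshold was not tested.

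The median span of the untreated interactions was 32 kb, against 24 kb over all interactions and 39.5 kb for ends of other promoters at the same coverage. After IAA the median was 40 kb, against 22 kb and 39.4 kb. The longest spans were 568 kb untreated and 788 kb after IAA, the latter from Rpl4 to the start of Ints14 with 8 contacts.

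The comparison of the untreated list with the list after 12 h of IAA asks which interactions persist when the degron is triggered. Of the 393 untreated ribosomal protein interactions, 183 (46.6%, Wilson interval 41.7 to 51.5) were called again at the same bin pair, against 42.9% of all untreated interactions and 43.4% of the interactions of other promoters. Counted by ends, the share was 46.5%, against 50.5% for other promoters at the same coverage. Held alike in contact count instead, the difference was -0.35 percentage points. When each end could differ by 1 bin the share was 60.6% of interactions, against 65.7% of all interactions, and by ends 60.6%, against 61.2% for other promoters and 67.0% for those at the same coverage (a difference of -6.40 percentage points). The order of the 2 sets thus depended on the match and on what was held alike, and these differences were not tested.

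Calling again followed the number of contacts. With 6 to 9 untreated contacts 25.7% of 70 ribosomal protein interactions were called again, with 10 to 14 contacts 32.2% of 149, with 15 to 24 contacts 56.4% of 110, and with 25 or more 85.9% of 64. The shares for other promoters were 16.2%, 32.7%, 58.4% and 85.0%. Interactions with a start at the other end were called again in 56.9% of 197 (Wilson interval 49.9 to 63.6), and those without in 36.2% of 196 (29.8 to 43.2). For other promoters the shares were 49.98% with a start at the other end and 41.0% without. Large-subunit genes kept 45.5% of 246 interactions and small-subunit genes 48.3% of 149.

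Interactions of these promoters listed only after IAA had a higher median span than those of the other classes. It was 89 kb over 122 interactions (95% interval of the median 64 to 104), against 26 kb for the 183 in both lists and 44 kb for the 210 in the untreated list only. For other promoters at the same coverage the weighted means of the class medians were 63.3, 31.0 and 49.1 kb, in the same order. Over all interactions the medians were 26, 20 and 28 kb, with those listed only after IAA slightly under those of the untreated list only. Of the 122, 53 (43.4%, Wilson interval 35 to 52.3) spanned 100 kb or more, against 35.7% of those of other promoters at the same coverage. These 53 came from 35 genes, led by Rpl19 with 5, and without any single gene the median lay between 84 and 92 kb. With at least 10 contacts required the median was 52 kb over 79 interactions listed only after IAA, 24 kb over 165 in both lists and 28 kb over 158 in the untreated list only.

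**Figure D4:**
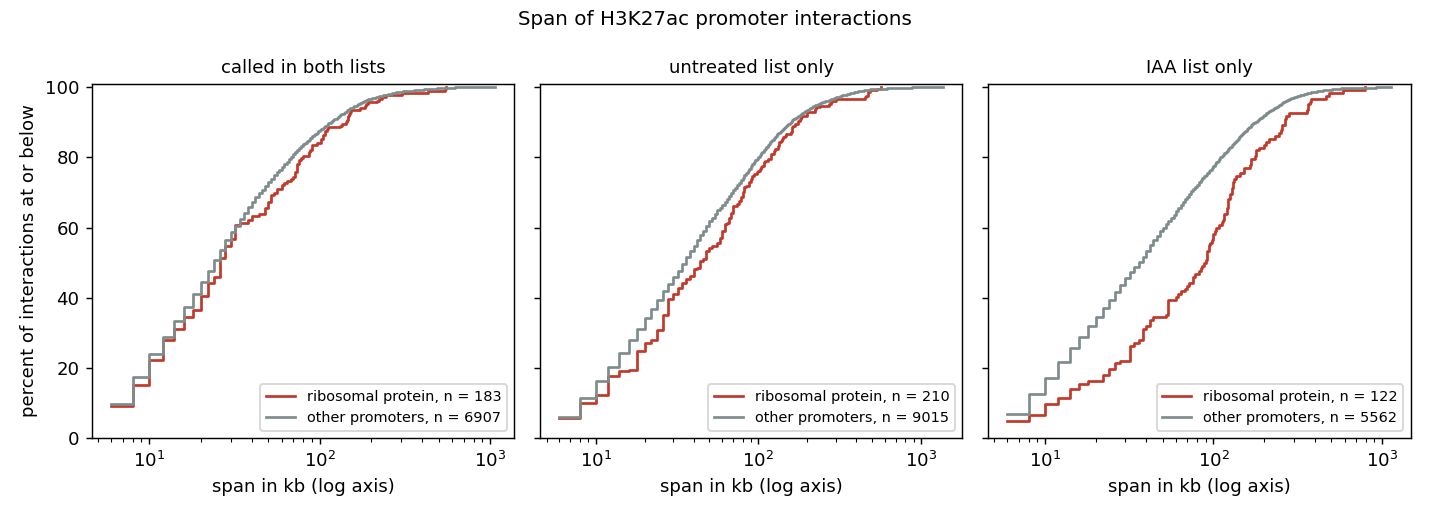
Cumulative percent of promoter interactions (vertical axis) at or below each span (horizontal axis, log scale, in kb), in 3 panels for interactions called in both lists, in the untreated list only and in the IAA list only; red is ribosomal protein promoters and grey all other promoters. The curves lie close together in the first panel, where the ribosomal protein median is 26 kb, and the red curve lies to the right in the third, where it is 89 kb.

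The contacts of single ribosomal protein interactions were compared between the 2 lists by a test. Of the 183 shared interactions, 0 had an adjusted p under 0.05 (binomial test, exact and two-sided, Benjamini-Hochberg over all 15551 shared interactions), against 0.135% of all shared interactions. At an unadjusted p under 0.05 by the same exact test, 7 were lower after IAA (3.83%, against 2.43% of all shared interactions) and 0 were higher (against 1.98%). The smallest adjusted p was 0.383. In a set of 183, a count of 0 cannot be told apart from the share over all shared interactions. The test compares 2 pooled lists and not the conditions, since it holds no spread between replicates. The 7 include the Bicral intron of Rpl7l1 and the start of Lonp1, a mitochondrial protease, which was joined to Rpl36 by 40 contacts untreated and 17 after IAA. Also among them are Safb with Rpl36, Snapc5 with Rpl4, Surf6 with Rpl7a and Rfc1 with Rpl9 (29 and 13 contacts), the last named after its values were seen.

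In sum over the 183 shared interactions, 3880 contacts untreated stood against 3498 after IAA. Relative to the totals over all shared interactions this is a log2 ratio of -0.12, with an exact (Clopper-Pearson) 95% interval of -0.19 to -0.05, against -0.04 for other promoters (-0.05 to -0.03). The median ratio was 0.03, the value that equal counts give, and was the same over all shared interactions. The mean ratio per interaction was -0.08, against 0.01 over all shared interactions. Counted by ends and at the same coverage, the other promoters had a mean of -0.03 and a median of -0.03, so the ribosomal protein mean lay below theirs and the median above. At least 1.5-fold lower were 25 interactions (13.7%, against 8.04% of all), and at least 1.5-fold higher were 10 (5.46%, against 8.55%). In the class of 25 or more untreated contacts the log2 ratio of the sums was -0.27 (-0.36 to -0.17) for ribosomal protein promoters. For others it was -0.18 (-0.20 to -0.17). With 15 to 24 untreated contacts the 2 ratios were -0.10 and -0.02, and with 10 to 14 they were 0.16 and 0.18. With 6 to 9 they were 0.28 and 0.40. The classes use the untreated count, which lowers the ratio in the top class in both sets by construction. Without Rpl7l1 and Rpl36 the log2 ratio of the sums was -0.08 (-0.15 to -0.01).

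**Figure D5:**
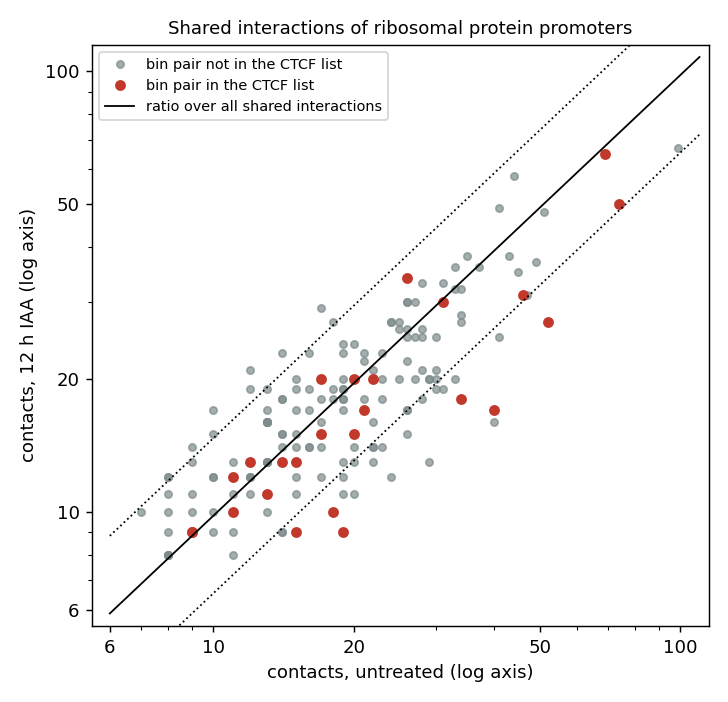
Contacts after 12 h of IAA (vertical axis, log scale) against contacts untreated (horizontal axis, log scale) for the 183 shared interactions of ribosomal protein promoters; red points are bin pairs also in the CTCF list and grey points the others, the solid line is the ratio over all shared interactions and the dotted lines are 1.5-fold either side. Most points lie between the dotted lines, and 25 lie on or below the lower line and 10 on or above the upper one.

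By gene, the summed shared contacts of 4 of 64 genes had an interval below a log2 ratio of 0, and of 0 genes above it. That is 6.25% lower, against 3.6% of the 4365 protein-coding genes with a shared interaction, of which 1.19% had an interval above 0. The intervals cover counting error only and were not adjusted for the number of genes. Rpl36, a large-subunit protein, had 126 contacts untreated and 83 after IAA over 5 shared interactions, a log2 ratio of -0.57 (-0.99 to -0.16). Rpl7l1 had 236 and 156 over 10, a log2 ratio of -0.57 (-0.87 to -0.27). Rps9, named after its values were seen, had 155 and 118, a log2 ratio of -0.36 (-0.72 to -0.01). Among the 43 genes with at least 60 summed contacts over both lists, Rps13 was also in the lowest 4, with 39 and 27 and a log2 ratio of -0.50 whose interval spans 0. In the highest 4, Rpl30 had 41 contacts untreated and 53 after IAA, and Rps21 had 97 and 122. Rpl3 had 107 and 117, and Rps15a had 98 and 107. Their log2 ratios of 0.40, 0.36, 0.16 and 0.16 had intervals that span 0. At Rpl30 the difference lay in 1 partner, the starts of Pop1 and Rida, with 17 and 29 contacts, and at Rpl3 the start of Atf4, the stress response factor 172 kb away, had 19 and 23.

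The CTCF and RAD21 lists, in bins of 1 kb, held fewer of these promoters. In the CTCF list 37 of 85 genes (43.5%) had an interaction, against 23% of all protein-coding genes. In the RAD21 list 21 (24.7%) had one, against 15.4%. Both lists held 14 of the genes, and the share of all protein-coding genes in both is not given here. Among genes that also had an untreated H3K27ac interaction the shares were 45.5% of 77 against 42.7% of 6864 for CTCF, and 27.3% against 31.5% for RAD21. Among these genes the CTCF share was thus slightly higher than the background and the RAD21 share lower, and both backgrounds lay within the Wilson intervals of the ribosomal protein shares (34.8 to 56.5 and 18.6 to 38.1). The genes held 113 of 49630 CTCF interactions, with a median span of 78 kb against 149 kb over all. They held 41 of 23630 RAD21 interactions, with a median of 87 kb against 123 kb. Of the 113, 18.6% (Wilson interval 12.5 to 26.7) were also in the RAD21 list, against 34.4% of all CTCF interactions. Of the 41, 51.2% (36.5 to 65.7) were also in the CTCF list, against 72.2%.

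Rpl36 had the most CTCF contacts, 268 over 9 interactions, and 99 over 5 in the RAD21 list. Its strongest, to a bin outside annotated genes at chr17:56668001-56669000, had 72 contacts in the CTCF list and 39 in the RAD21 list. Rplp0, which forms the stalk of the large subunit, had 240 contacts over 9 CTCF interactions, and 23 in 1 RAD21 interaction. That one joined chr5:115559001-115560000 to the start of Pxn, encoding paxillin, 53 kb away, with 57 contacts in the CTCF list. Rpl11, a large-subunit protein that also binds Mdm2, had 173 contacts over 9, and 34 over 3 in the RAD21 list. Its bin chr4:136053001-136054000 met the start of Eloa, 32 kb away, with 17 CTCF and 10 RAD21 contacts. Rpl26 had 124 contacts over 7, and 29 over 2. Its strongest had 32 CTCF and 20 RAD21 contacts, 81 kb from chr11:68901001-68902000. In the H3K27ac list these genes had 8 (Rpl36), 2 (Rplp0), 9 (Rpl11) and 4 (Rpl26) untreated interactions.

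At the level of single bin pairs, 46 of the 393 untreated H3K27ac interactions (11.7%, Wilson interval 8.89 to 15.3) were also in the CTCF list, against 6.23% of all untreated interactions. By ends the share was 11.9%, against 7.43% for other promoters at the same coverage. In the RAD21 list were 21 (5.34%, 3.52 to 8.03), against 5.68% of all. The nearest anchor of the CTCF list lay a median of 3 kb from the ribosomal protein bins and 1.14 kb from other promoters at the same coverage. Within 5 kb of such an anchor lay 57.1% of ribosomal protein bins, 58.2% of other promoter bins and 61.3% of those at the same coverage. Those 25 shared interactions whose bin pair was in the CTCF list had 635 contacts untreated and 497 after IAA, a log2 ratio of -0.32 (-0.50 to -0.15), against -0.19 (-0.23 to -0.15) for other promoters. The 12 in the RAD21 list had 285 and 200, a log2 ratio of -0.48 (-0.75 to -0.22), against -0.20 (-0.24 to -0.17). The 158 not in the CTCF list had 3245 and 3001, a log2 ratio of -0.08 (-0.16 to -0.01), against -0.03 (-0.04 to -0.02). The intervals of the 2 CTCF-list ratios overlap, and the difference was not tested. Of the 25 pairs, 18 (72%, against 61.6% for other promoters) had a log2 ratio below 0. The 25 include the pairs of Rpl36 with Safb (52 contacts untreated and 27 after IAA) and with Lonp1 (40 and 17), both with a start at both ends. The ratio of the CTCF-list pairs without Rpl36 is not given here. Of those 25 pairs, 17 had a start at both ends and a log2 ratio of -0.45 (-0.67 to -0.24), against -0.20 for other promoters. The 8 with a start at 1 end had -0.09 (-0.38 to 0.20), against -0.18, so the order was the other way.

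Other gene lists tied to the ribosome gave these values, against 31.3% of all protein-coding genes listed, 42.9% of all untreated interactions called again and a median log2 ratio of 0.03 over all shared interactions. Of 21 genes of the translation machinery 17 were listed, with 113 untreated interactions, of which 40.7% (Wilson interval 32.1 to 49.9) were called again, and the median log2 ratio of shared contacts was -0.21. Of these Eef1g and Eef1b2, subunits of the elongation factor that reloads Eef1a, had the most, 16 and 13. Of 23 genes of ribosome biogenesis and RNA polymerase I 18 were listed, with 109 interactions, of which 53.2% (43.9 to 62.3) were called again, and a median of -0.08. Ubtf, a factor of ribosomal RNA transcription, had 28 interactions and Ncl, encoding nucleolin, had 22. Of 78 mitochondrial ribosomal protein genes 46 were listed, with 157 interactions, of which 49.0% (41.3 to 56.8) were called again, and a median of -0.08. Mrps18b had 15 and Mrpl39 had 10. A protein-coding start at both ends was found in 43.4% of translation machinery interactions and 34.9% of ribosome biogenesis interactions. For mitochondrial ribosomal protein genes it was 52.9%, above the 50.1% of the cytoplasmic family, against 12.3% of all interactions. In each of these lists 0 interactions had an adjusted p under 0.05 by the exact binomial test, against 0.135% of all shared interactions. With 46 shared interactions for the translation machinery, 58 for ribosome biogenesis and 77 for mitochondrial ribosomal proteins, 0 cannot be told apart from that share. The cytoplasmic ribosomal protein promoters thus had the highest share of listed genes of the 4 lists, and their median coverage of 5116.5 lay between the 5495 of the translation machinery and the 2477 of mitochondrial ribosomal protein genes.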

How the data were processed

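H3K27ac, CTCF and RAD21 MNase HiChIP was measured in 9 libraries, deposited as 4 interaction lists pooled over replicates, per the labels. The submitters' processing notes name Trim Galore, BWA, MACS2, deepTools and the build mm10; versions and the pooling step are not given in the sources used here. The deposited contact counts and coverage values are whole numbers, not normalised by the authors. Per the file headers each pair also has a predicted contact signal, a model probability (a fraction) and a q-value from the authors' model; the column layout is that of FitHiChIP. The largest q-value was just under 0.05. Only contacts, coverage, peak flags and q-values were used, with the signal and fraction for the model total behind 1 alternative scaling.

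Transcript starts came from GENCODE M21 basic protein-coding genes (mm10, GRCm38). Positions count from 1. A promoter bin is a bin that holds a start; an interaction end is 1 promoter bin in 1 interaction. Other promoters were reweighted to the ribosomal protein bins over 10 coverage classes. A median given for other promoters at the same coverage is a mean of the medians of the classes. The weights are the numbers of ribosomal protein ends or bins in each class. Shared interactions have the same bin pair in both H3K27ac lists. Log2 ratios are scaled by the totals of contacts over all shared interactions, 347765 untreated and 340816 after IAA. The depth of the libraries is unknown beyond the lists; model totals gave 12551200 and 14629300 contacts. Intervals are 95%, from Wilson's method for shares, Clopper-Pearson for ratios and binomial order statistics for the median span, and hold counting error alone, with no molecular identifiers named in the labels. Analyses used Python 3.11.15, pandas 2.3.3, NumPy 2.4.6 and SciPy 1.17.1, and the binomial test was tested on simulated data.

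Named genes are the 8 with the most untreated interactions, the 4 highest and 4 lowest log2 ratios with at least 60 summed contacts, those joined to another ribosomal protein gene, the 4 with the most CTCF or RAD21 contacts, the 5 strongest interactions, genes in no list, and the 2 leading genes of each other list; a few of these are not reported here, but stay in all counts and fits. Members, lists and tests were chosen with earlier results of these data known. The alternatives on replicates could not be run. Those on all transcripts, on interactions listed only after IAA, on leaving out genes and on the density of starts were added after seeing the data.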

Additional observations from a re-analysis of the deposited data

How the results depend on the processing

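Values of ribosomal protein promoters that moved with the processing were these. The share called again after IAA, 46.6%, was 60.6% with a tolerance of 1 bin and 54.4% for untreated pairs with q at or under 0.01. The median log2 ratio of shared contacts, 0.03, was -0.22 when scaled by the model totals, which shifts every interaction alike. The median span of 32 kb was 26 kb with at least 10 contacts. The share with a start at the other end, 50.1%, was 65.1% with a start within 1 bin. The difference in that share from other promoters at the same coverage, 13.7 percentage points, was 2.81 at the same density of starts and 7.86 with both held alike. The median span of interactions listed only after IAA, 89 kb, was 108 kb with a tolerance of 1 bin and 52 kb with at least 10 contacts. The cause of these moves was not tested. The other 28 values stayed within 1.5 times for counts, or within the counting interval. No paired analysis was possible because each list is pooled over its replicates, and for the same reason no replicate could be left out. Depth limits single pairs, whose median is 13 contacts.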
